A study of Drosophila melanogaster with 4 samples.

Results

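Guanylate cyclases and the proteins that act on their product, cyclic GMP (cGMP), were followed in whole Drosophila melanogaster larvae in which one such cyclase, Gyc76C, had been overexpressed. The set comprised 10 genes, and its members were found by the gene symbols of the array's annotation. They are the receptor guanylate cyclases Gyc76C and Gyc32E, the soluble guanylate cyclases Gyc88E, Gyc89Da, Gyc89Db, Gycalpha99B and Gycbeta100B, the cGMP-dependent protein kinases for and Pkg21D, and the phosphodiesterase Pde6. Of these, 9 had a probe set, 11 probe sets in all among 18769 that were not controls, and Gycbeta100B was not analysed here.

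The experimental larvae carried C564-Gal4 and UAS-Gyc76C, and the control larvae carried C564-Gal4 and UAS-GFP, so all larvae shared the driver. C564-Gal4 is known as a fat body driver that is also active in blood cells, and the labels place the overexpression in the fat body, which stores lipid and secretes immune peptides into the haemolymph. Larvae were in the third instar and had been raised at 25 °C, RNA came from the whole body, and 2 arrays per genotype are labelled as biological replicas. The sources used here do not give the number of larvae in a sample.

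Receptor guanylate cyclases are membrane proteins that convert GTP to cGMP when a ligand binds outside the cell. Soluble cyclases do so inside the cell, the conventional alpha and beta pair in response to nitric oxide. cGMP then activates kinases and cyclic nucleotide-gated channels, and phosphodiesterases end the signal by hydrolysing it. In flies this pathway is well known in the Malpighian tubule, the renal organ, where it controls fluid secretion, and in the nervous system, where the kinase gene for (foraging) sets feeding behaviour.

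Among the members with a usable signal, the transgene's own gene and the phosphodiesterase gene Pde6 were higher in Gyc76C larvae, 18.6-fold and 2.36-fold. The rise of Gyc76C was that of its brightest probe set, and its other probe sets had lower signals in Gyc76C larvae. Pde6 did not pass the threshold under every alternative processing. The kinase gene Pkg21D had a 2.04-fold higher signal that did not pass the threshold, and the other kinase gene, for, a 1.34-fold lower signal that did not pass it either. The remaining 5 members that had a probe set, all of them cyclases, were too dim to be tested. All folds are ratios of geometric means of the arrays' signals, Gyc76C over GFP or, where lower, the reverse.

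**Figure D1:**
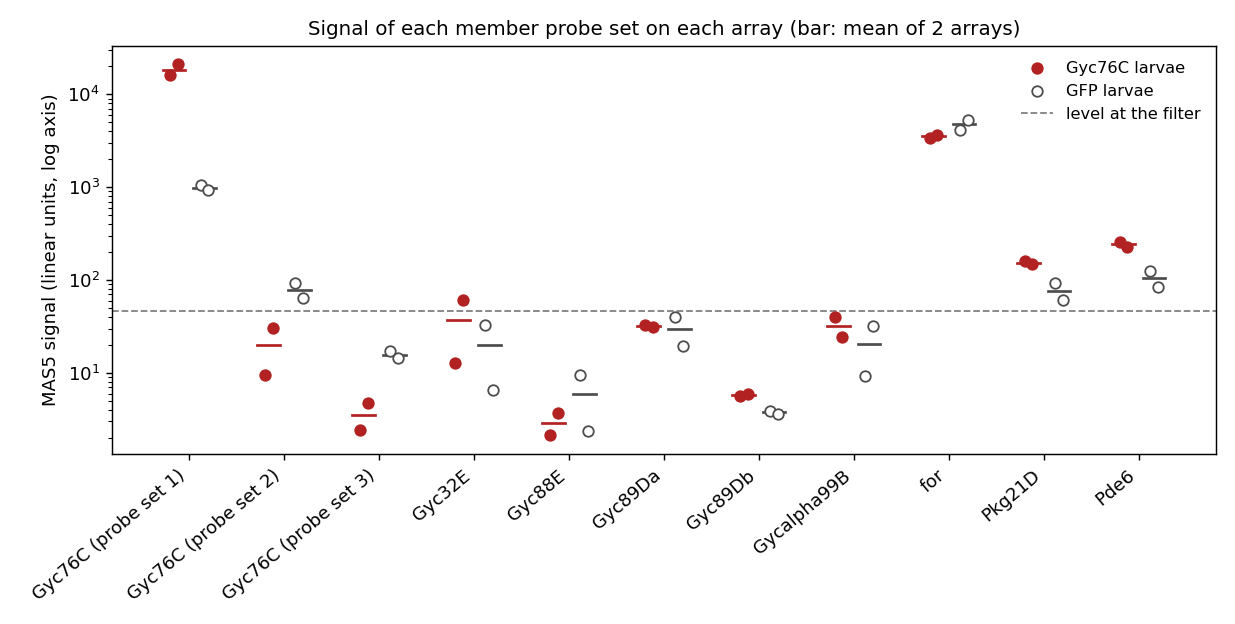
Signal (linear MAS5 units on a log axis) of the 11 member probe sets on each of the 4 arrays, with filled points for Gyc76C larvae, open points for GFP larvae, a bar at the mean of the 2 arrays of a genotype, and a dashed line at 46.3, the level that separates tested from untested probe sets. The brightest Gyc76C probe set, Pde6 and Pkg21D had both Gyc76C arrays above both GFP arrays, for had them below, and the 5 other cyclase genes lay mostly under the line.

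Only probe sets with a mean signal over the 4 arrays of at least 46.3, the 40th percentile, were tested. By limma, 2771 of the 11261 tested probe sets passed a Benjamini-Hochberg adjusted p of 0.05 (24.6%). Of all tested, 11.3% passed with a higher signal in Gyc76C larvae (1271 probe sets) and 13.3% with a lower one (1500). These counts depended on scaling, with 1663 higher and 991 lower when arrays were centred on their medians, and 1436 and 1181 after quantile normalization. Of the 4 members tested, 2 passed, both of them higher, Gyc76C by construction of the larvae and Pde6. Correlations over tested probe sets were 0.968 between the Gyc76C arrays, 0.966 between the GFP arrays and 0.88 to 0.91 between genotypes. The median log2 difference of all tested probe sets was -0.16. For the 4 tested members, values with each array centred on its median are therefore given beside those as deposited. Values of all other genes are as deposited and include this shift.

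Gyc76C itself was represented by 3 probe sets, all annotated to CG42637 as well, a gene whose span overlaps that of Gyc76C in RefSeq, so their signal cannot be assigned to either symbol alone. The brightest had signals of 16050 and 20993 in Gyc76C larvae and 1047 and 928 in GFP larvae. The Gyc76C arrays thus lay far above the GFP arrays, and the mean was 18521 ± 3495 against 987 ± 84.1 (SD, n = 2 each). The log2 fold change was 4.22 (SE 0.17, 95% interval of the fold 14.1 to 24.6, limma adjusted p = 5.79e-05), or 4.38 with centred arrays. Only 31 of the tested probe sets, 0.275%, had a larger rise.

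The other Gyc76C probe sets gave the opposite picture. The second in brightness had signals of 9.42 and 30.6 in Gyc76C larvae and 91.9 and 64.9 in GFP larvae. Both Gyc76C arrays were under the level of 46.3 and both GFP arrays above it, so the signal was at least 1.67-fold lower in Gyc76C larvae, short of the threshold at a log2 fold change of -2.19 with an SE of 0.81 (adjusted p = 0.0951). This probe set reached the filter only through its GFP arrays, and with signals raised to the level its log2 fold change was -0.74 (adjusted p = 0.115). The dimmest, with 2.43 and 4.69 in Gyc76C larvae and 17.0 and 14.6 in GFP larvae, was under the level on every array and was not tested. Averaged over both tested probe sets, Gyc76C had a log2 fold change of 1.02 and did not pass (adjusted p = 0.0737), so the rise rests on the brightest probe set. The sources used here do not say which part of the gene each probe set reads, or whether the transgene holds that part.

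**Figure D2:**
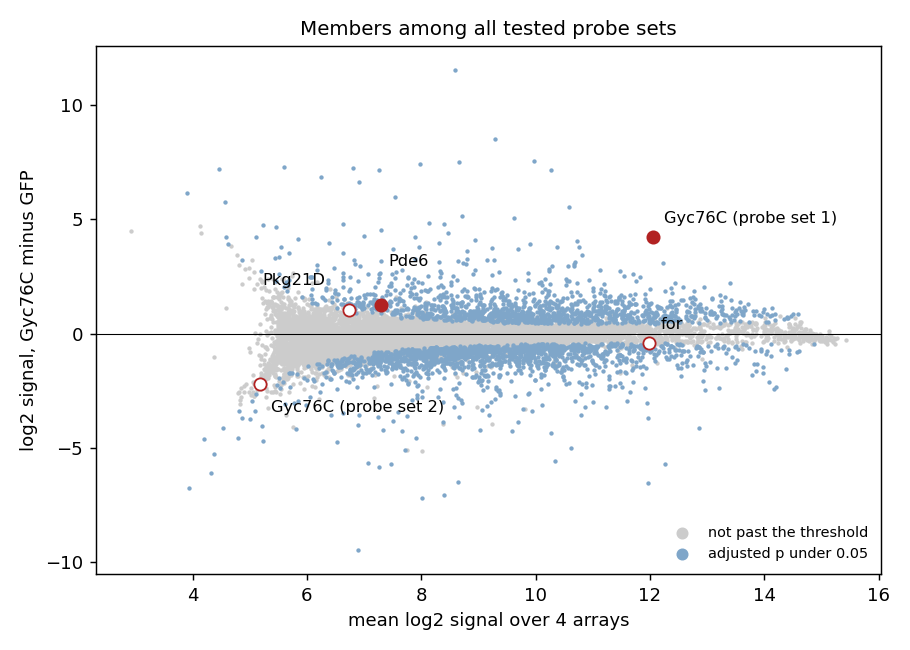
Log2 difference in signal, Gyc76C minus GFP larvae (vertical axis), against the mean log2 signal over 4 arrays (horizontal axis) for the 11261 tested probe sets, blue where the adjusted p was under 0.05. Large circles mark the 5 tested member probe sets, filled where past the threshold: the brightest of Gyc76C at 4.22 and Pde6 at 1.24 were, and Pkg21D at 1.03, for at -0.42 and the dim Gyc76C probe set at -2.19 were not.

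Gyc32E, the other receptor cyclase among the members, had signals of 12.9 and 61.5 in Gyc76C larvae and 32.9 and 6.60 in GFP larvae. The replicates of each genotype differed by more than the genotypes did, and the groups overlapped.

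The soluble cyclase genes were dim on all arrays. Gycalpha99B, the alpha subunit of the nitric oxide receptor, had 39.9 and 24.2 in Gyc76C larvae and 9.33 and 31.9 in GFP larvae. Gyc88E and the neighbouring pair Gyc89Da and Gyc89Db, between which RefSeq places 0 other protein-coding genes, encode the atypical soluble cyclases, which are known in flies as sensors of oxygen. Gyc89Da had 33.0 and 31.1 in Gyc76C larvae and 39.9 and 19.7 in GFP larvae, Gyc89Db had 5.64 and 5.89 against 3.93 and 3.62, and Gyc88E had 2.12 and 3.68 against 9.59 and 2.38. The groups overlapped for all of these except Gyc89Db, whose signals were far under the level in both genotypes and give no usable fold. Over Gyc32E and these 4 genes, 1 of 20 signals reached 46.3. When all probe sets were tested without a filter, 0 of the 5 genes had an unadjusted p under 0.05 by limma, with adjusted p between 0.627 and 0.908. The standard errors were then 0.75 to 1.18 on the log2 scale, so a difference of 2-fold in these genes was not detectable with these arrays.

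Pde6 encodes a phosphodiesterase that hydrolyses cGMP and has been studied in the fly's Malpighian tubule. Its signals were 257 and 229 in Gyc76C larvae and 126 and 84.1 in GFP larvae, with means of 243 ± 20.0 and 105 ± 29.3 (SD, n = 2 each). The groups did not overlap, which was also true of 26.9% of tested probe sets in this direction. Pde6 was 2.36-fold higher in Gyc76C larvae (log2 fold change 1.24 with a 95% interval of 0.58 to 1.90 and an SE of 0.27, adjusted p = 0.0209), and 4.70% of tested probe sets had a larger rise. The log2 fold change was 1.40 with centred arrays (adjusted p = 0.0145). The call ended without Gyc76C replicate 1 (1.16, adjusted p = 0.0901) and when the prior variance had no mean trend (adjusted p = 0.0549).

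Pkg21D, also called dg1, encodes a cGMP-dependent protein kinase. It had signals of 159 and 147 in Gyc76C larvae and 92.1 and 61.1 in GFP larvae, again without overlap, and means of 153 ± 7.84 and 76.6 ± 21.9. The 2.04-fold difference had a 95% interval of 1.20 to 3.47 for this gene alone and did not pass after adjustment over all probe sets (log2 fold change 1.03 with an SE of 0.32, adjusted p = 0.0603). It passed with centred arrays (1.18, adjusted p = 0.0417), after quantile normalization (adjusted p = 0.0359) and when GFP replicate 1 was left out (1.32, adjusted p = 0.0344). It had 0.73 when GFP replicate 2 was left out (adjusted p = 0.18).

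The gene for, which encodes the foraging kinase, had the smallest log2 difference of the tested members. Its signals were 3379 and 3662 in Gyc76C larvae and 4166 and 5330 in GFP larvae. Both Gyc76C arrays were lower, as in 41.4% of tested probe sets, and the means were 3521 ± 200.4 and 4748 ± 823. The log2 fold change of -0.42 (SE 0.16, 95% interval -0.80 to -0.04) did not pass the threshold (adjusted p = 0.0973), and it was -0.26 with centred arrays. It passed without GFP replicate 1, the dimmer of the control arrays for this gene, at -0.60 (adjusted p = 0.0112).

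Both kinase genes were read on the same arrays, and a scaling factor common to all probe sets of an array cancels in the difference between their log2 signals. Pkg21D minus for was -4.41 and -4.63 in Gyc76C larvae and -5.50 and -6.45 in GFP larvae, 1.45 higher in Gyc76C larvae. Pde6 minus Pkg21D was 0.70 and 0.64 in Gyc76C larvae and 0.45 and 0.46 in GFP larvae, 0.21 higher. In both pairs the genotypes did not overlap, but 2 arrays against 2 cannot give an exact two-sided permutation p below 0.333, which is the value obtained for each (0.333 after Benjamini-Hochberg adjustment over the 2 pairs). The pairs were chosen after the values were seen.

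**Figure D3:**
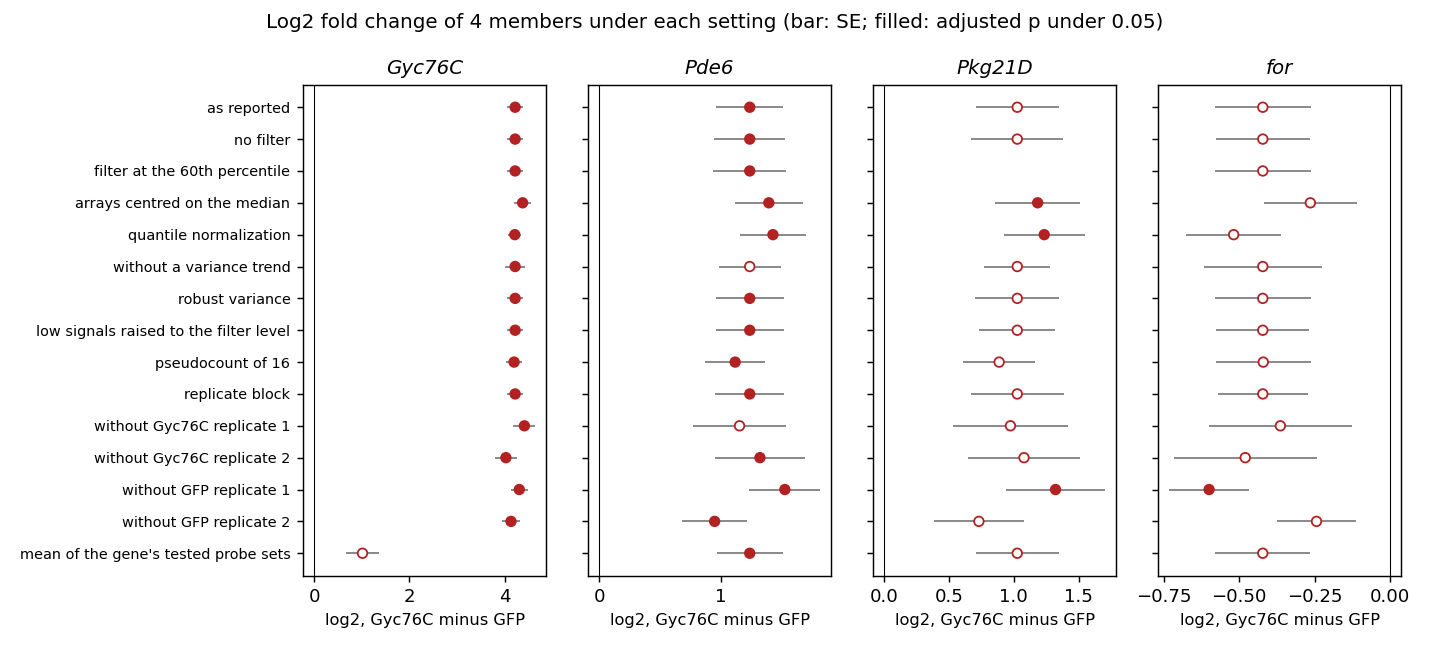
Log2 fold change, Gyc76C over GFP larvae (horizontal axis, a separate scale for each gene), of Gyc76C, Pde6, Pkg21D and for as reported (top) and under each alternative setting, with bars for the standard error and filled points where the adjusted p was under 0.05. The direction was the same under every setting run for each of the 4 genes; Gyc76C was low and not past the threshold only as a mean of its tested probe sets, and Pkg21D was under the stricter filter at the 60th percentile and has no value there.

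In whole larvae, fewer cells of a type and less RNA per cell cannot be told apart, so markers of tissues were read beside the members. Of 5 tested markers of the Malpighian tubule, 1 rose, the transporter gene Oatp58Dc, which had 1182 and 1163 in Gyc76C larvae and 399 and 460 in GFP larvae (log2 fold change 1.45, adjusted p = 0.00155). The list's median log2 difference was 0.08, and its summed signal was 2773 to 3032 in Gyc76C larvae and 2159.0 to 2182 in GFP larvae. Without Oatp58Dc the sums of the genotypes overlapped. The other 4 markers did not pass, with log2 differences of 0.70 for Best2, 0.08 for Ndae1, -0.12 for NtR and -0.43 for Irk3. All 6 salivary gland markers fell, with a summed signal of 10886 to 13549 in Gyc76C larvae and 153013 to 163800 in GFP larvae. The falls ranged from 2.15-fold for sage to 94.2-fold for Sgs3, so this sum is not a measure of the amount of tissue. Of 5 fat body markers 2 fell, Fbp1 and Fbp2, and the list's sum was 89422 to 105865 in Gyc76C larvae and 133344 to 136211 in GFP larvae. Fbp1 weighed heavily in it, with means of 12670 in Gyc76C larvae and 36644 in GFP larvae. The markers did not move together, so this sum is not a measure of the amount of tissue either. By limma, Fbp2 only just passed (adjusted p = 0.0499) and did not pass without a filter (0.157). Lsp2, Lpin and apolpp did not pass, with log2 differences of -0.37, -0.07 and 0.41. Of 6 blood cell markers 1 rose, Col4a1, which the fat body also expresses, and 2 fell, with a median log2 difference of -0.01. Their sum was 9309 to 9722 in Gyc76C larvae and 6368 to 6652 in GFP larvae, and without Col4a1 it was 3069 to 3230.2 in Gyc76C larvae and 3654 to 4206 in GFP larvae. Of 5 neuronal markers only elav and brp were bright enough to test, neither passed, and their sum was 144 to 158 in Gyc76C larvae and 213 to 229 in GFP larvae. The part of these tissues in the differences of Pde6 and Pkg21D was not tested.

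The other genes of cyclic nucleotide signalling and of purine supply were taken from 9 lists of 54 genes. Of these, 45 were matched to a probe set with 1 symbol. Probe sets with several symbols were not searched for the rest, which were not analysed. These were Ac3, the kinase genes Pka-C1, Pka-C2 and Pka-R2, awd, PlexA, and mts, Pp2A-29B and wrd of the protein phosphatase 2A list. The matched genes gave 6 calls among 38 genes tested, 3 higher and 3 lower. That is 15.8% of them, against 25.7% of the 9259 genes tested when each is represented by its brightest probe set. Their median log2 difference was -0.25, against -0.17 for all tested genes. The number of calls was 1 without Gyc76C replicate 1 or without the mean trend, 11 without GFP replicate 1 and 11 with the replicate number as a block.

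Among 5 other phosphodiesterases 1 rose. This was dunce (dnc), which hydrolyses cAMP, with 340.1 and 341 in Gyc76C larvae and 209.5 and 218.6 in GFP larvae, 1.59-fold higher (log2 fold change 0.67 with an SE of 0.17, adjusted p = 0.035). The dnc call ended when any of 3 arrays was left out, Gyc76C replicate 1 (adjusted p = 0.17), Gyc76C replicate 2 (0.135) or GFP replicate 1 (0.0515), and also without a filter (0.0575) or without the mean trend (0.0632). Pde9 and Pde11, whose products hydrolyse cGMP and, in the case of Pde11, cAMP as well, were chosen after their values had been seen. Pde9 had 105 and 179 in Gyc76C larvae and 235 and 320 in GFP larvae (log2 fold change -0.997, adjusted p = 0.0611), and Pde11 had 180 and 191 against 271 and 513 (log2 fold change -1.01, adjusted p = 0.0565). Neither passed as reported; both did when GFP replicate 1 was left out (adjusted p = 0.0377 and 0.00193) and with the replicate block (0.0189 and 0.0194), and Pde9 also when Gyc76C replicate 2 was left out (0.0214). A second Pde11 probe set, under the level on average and not tested, had 55.8 and 41.7 in Gyc76C larvae and 25.4 and 31.1 in GFP larvae, the other direction.

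Adenylate cyclases make cAMP, the sister messenger. Of 8 tested, Ac76E rose, with 680 and 629 in Gyc76C larvae and 371 and 237 in GFP larvae, 2.20-fold higher (log2 fold change 1.14 with an SE of 0.23, adjusted p = 0.0165). The Ac76E call ended without Gyc76C replicate 1 (adjusted p = 0.0699) and without the mean trend (0.0684). The other 7 did not pass and had log2 differences between -1.83 and 0.64. The lowest, of ACXC, depended on single arrays, with signals of 4.82 and 91.1 in Gyc76C larvae and 76.9 and 71.9 in GFP larvae. It was 0.29 when Gyc76C replicate 1 was left out, -3.95 when replicate 2 was left out (adjusted p = 0.0242), and -0.19 with signals raised to 46.3. ACXC was chosen after its values had been seen.

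The list of purine and GTP synthesis, the supply of the cyclases' substrate, held 4 of the 6 calls, over 10 tested genes. That is 40% of them, against 25.7% of all tested genes, and this difference in share was not tested. Prat2, which encodes an enzyme of the committed step of purine synthesis, had 256 and 536 in Gyc76C larvae and 1470.4 and 1638 in GFP larvae, 4.19-fold lower (log2 fold change -2.07 with an SE of 0.32, adjusted p = 0.00674). Paics and Pfas, enzymes of later steps toward IMP, fell 1.96-fold and 1.77-fold, Paics to 3403 and 4228 in Gyc76C larvae, against 6729 and 8249 in GFP larvae (adjusted p = 0.00944 and 0.0223). Adss, whose product turns IMP toward AMP, rose 1.62-fold, with 4217 and 4184 in Gyc76C larvae and 2728 and 2459.6 in GFP larvae (adjusted p = 0.0109).

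In the branch from IMP to GTP, the 3 genes tested gave 0 calls, and the listed gene awd was not matched to a probe set. The IMP dehydrogenase gene ras (raspberry) had 1298 and 1288 in Gyc76C larvae and 1803 and 3644 in GFP larvae, and its log2 fold change of -0.99 did not pass (SE 0.30, adjusted p = 0.0575). It passed when either GFP array was left out, at -1.495 without replicate 1 (adjusted p = 0.000121) and -0.48 without replicate 2 (0.028), and with the replicate block (0.0123). The GMP synthetase gene bur (burgundy) had a log2 difference of -0.02 with a 95% interval of -0.38 to 0.34, and CG11811 had 0.27. These 3 were chosen after their values had been seen. Within the whole list, Prat2 passed under all 14 alternatives. The Paics and Pfas calls ended without Gyc76C replicate 1 (adjusted p = 0.0501 and 0.149) and without the mean trend (0.0597 and 0.0785), and the Adss call when Gyc76C replicate 1 (0.0875) or 2 (0.0613) was left out, or the mean trend (0.0637).

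The remaining 6 lists gave 0 calls by limma among 15 tested genes, of which 2 had an unadjusted p under 0.05. These were Ih, a channel opened by hyperpolarization and cyclic nucleotides, with a log2 difference of -0.67 (adjusted p = 0.0577), and CG4733, listed with the subunits of protein phosphatase 2A, at 0.66 (adjusted p = 0.108). Ih passed with the 60th percentile filter (adjusted p = 0.0491), with the replicate block (0.0225) and when GFP replicate 1 was left out (0.00744). The channel gene CngB had -0.57 and the phosphatase subunit gene tws -0.21. Among guanylate cyclase genes outside the members, CG10738 had 59.8 and 55.4 in Gyc76C larvae and 50.3 and 26.5 in GFP larvae, and CG31183 had 109 and 107 against 110.4 and 201 (adjusted p = 0.441 and 0.353). Nplp1, which encodes a precursor of a peptide known to act on Gyc76C in the tubule, had 194 and 156 in Gyc76C larvae and 231 and 230.4 in GFP larvae (adjusted p = 0.208). The cAMP-dependent kinase gene Pka-C3 had a log2 difference of 0.41, and passed without GFP replicate 1 (0.77, adjusted p = 0.00586). The cAMP-activated exchange factor gene Epac had -0.20 and kermit, which encodes a binding partner of Gyc76C, -0.29. Neither passed under any alternative run.

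**Figure D4:**
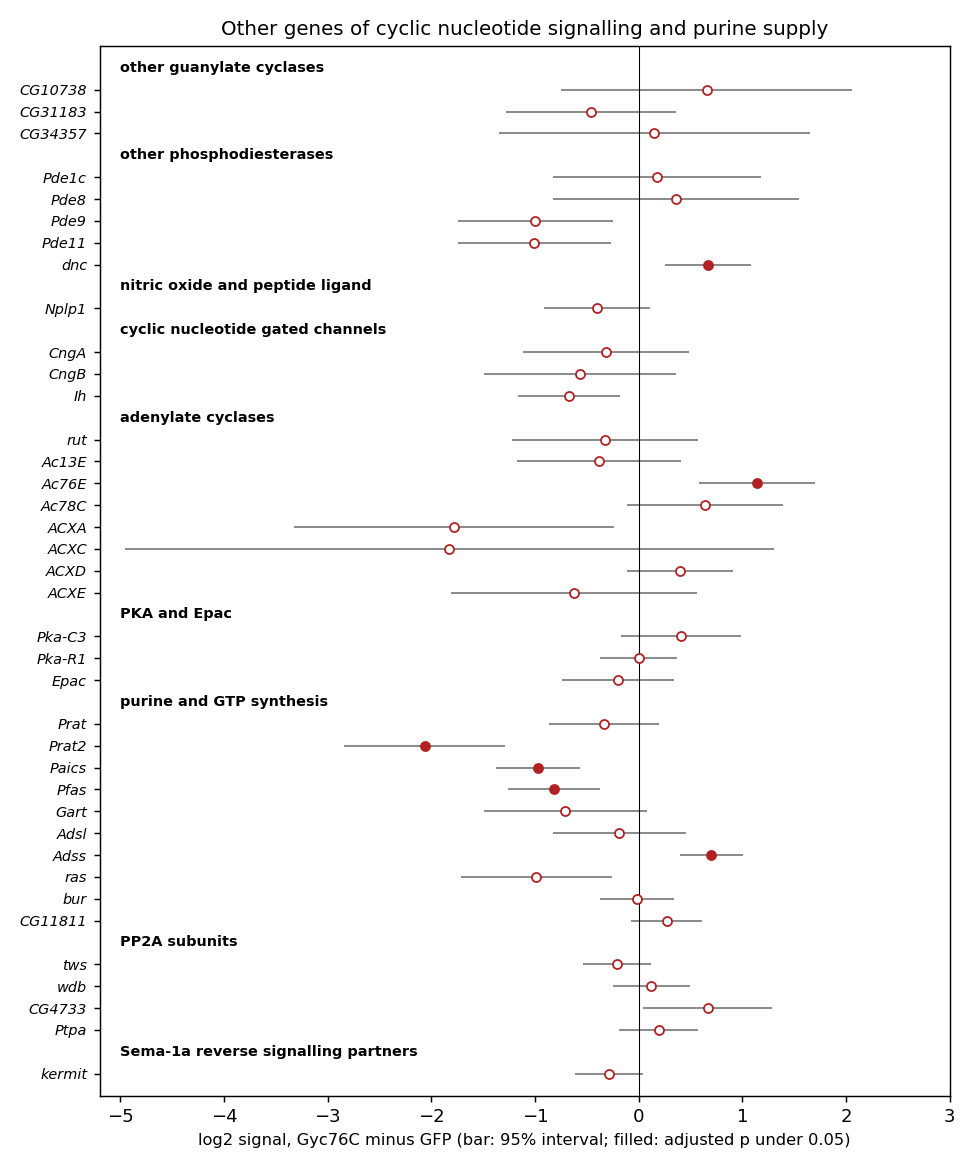
Log2 difference in signal, Gyc76C minus GFP larvae (horizontal axis), with its 95% interval for each of the 38 tested genes of the 9 lists, 1 row per gene, filled where the adjusted p was under 0.05. Intervals are not adjusted for the number of genes, so some that miss 0 belong to open points; the filled points are dnc, Ac76E and Adss above 0 and Prat2, Paics and Pfas below it.

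The genes whose signals followed the brightest Gyc76C probe set most closely were found among 9256 others by the distance between their 4 log2 signals, each centred on the gene's own GFP mean. The 5 nearest were BomT3 at a distance of 0.38, CG14852 at 0.50, CG11585 at 0.68, CG8160 at 0.71 and Oxp at 0.77. BomT3, a gene of the Bomanin family of immune peptides, had 563 and 559 in Gyc76C larvae and 35.4 and 24.5 in GFP larvae, at least 12.1-fold higher. CG14852 was 15.2-fold higher, CG11585 15.8-fold and CG8160 13.7-fold, while Oxp had 77.0 and 119 in Gyc76C larvae and 4.92 and 8.04 in GFP larvae, at least 2.07-fold higher. For BomT3 and Oxp the GFP signals were under 46.3, so their distances and places in this order are uncertain. Both genes reached the filter only through their Gyc76C arrays. Over 4 arrays of 2 genotypes, the distance reflects mainly the size of the difference between genotypes.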

How the data were processed

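The file deposited by the authors holds 1 intensity per probe set and array, linear and not log-transformed. Per the submitters' processing notes these came from MAS5, without a version. Each of the 4 arrays had a 2% trimmed mean of 500.02, so a common scaling had been applied. MAS5 also gives a signal to probe sets that detect nothing, and low signals scatter widely on the log2 scale. Detection calls were not used here. The sources used here give no genome build for the array annotation.

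The table held 18952 probe sets. After leaving out 183 controls, 13647 had 1 gene symbol, 402 several and 4720 none. Symbols came from the platform annotation, and older names in the lists were matched through RefSeq synonyms (assembly Release 6). The brightest probe set stood for a gene. Log2 signals, with no pseudocount, entered limma 3.58.1 under R 4.3.3 (lmFit, and eBayes with a mean trend) over the 11261 probe sets with a mean signal of at least 46.3, two-sided, with Benjamini-Hochberg adjustment over all of them. The fit was checked on simulated arrays. It had 2 residual and 4.64 prior degrees of freedom. Signals under 46.3 were raised to it for folds given as "at least".

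Named genes are all members, up to 4 called genes of each list (or up to 2 where none was called) and the 5 nearest in pattern, except where said. The members and lists were chosen with earlier results of these data known. Alternatives were other filters, scalings, variance priors and treatments of low signals, a replicate block, other probe set summaries and leaving out each array.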

Additional observations from a re-analysis of the deposited data

How the results depend on the processing

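The number of arrays limits precision: the median standard error was 0.21 on the log2 scale. Leaving out each array in turn gave 1204 to 3350 called probe sets, 1 to 4 called members, 1 to 11 called pathway genes, and log2 fold changes of 0.95 to 1.53 for Pde6, 0.73 to 1.32 for Pkg21D and -0.60 to -0.24 for for. Without a mean trend in the variance there were 1241 called probe sets, 1 called member and 1 called pathway gene, and Pde6 kept 1.24 but missed the threshold (adjusted p = 0.0549). Pkg21D passed at 1.18 with centred arrays and at 1.23 after quantile normalization. As a mean of its tested probe sets Gyc76C had 1.02 and missed the threshold, which left 1 called member. The cause of each of these changes was not tested, except that the last follows from averaging probe sets of opposite direction. The replicate numbers did not pair the samples by their deviations (correlation 0.04); with the replicate block there were 11 called pathway genes, 3101 called probe sets and 2 called members. No tested member changed direction under any alternative run. Of 14 alternatives each, 12 left Pde6 and 13 left for on the same side of the threshold, as did 10 of 13 for Pkg21D, which the 60th percentile filter removed.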

Other observations

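Some genes of the pathway lists were under the level of 46.3 on average and so entered no test. The receptor-type guanylate cyclase gene CG3216 had 55.9 and 42.6 in Gyc76C larvae and 15.7 and 7.64 in GFP larvae. The groups did not overlap, as for 26.9% of tested probe sets in this direction. Only 1 array reached 46.3, and with signals raised to that level CG3216 was at least 1.10-fold higher. When no filter was used its unadjusted p by limma was 0.0349 and its adjusted p 0.152. The channel gene CG42260 had 2 probe sets of about the same mean signal that went opposite ways, with 58.6 and 26.4 in Gyc76C larvae and 22.4 and 5.61 in GFP larvae for one (unadjusted p without a filter 0.115), and 8.95 and 6.76 in Gyc76C larvae and 56.8 and 39.5 in GFP larvae for the other (unadjusted p 0.0176, adjusted p 0.099). The brighter probe set of CG33958, another guanylate cyclase gene, differed more between replicates than between genotypes, with 3.55 and 34.9 in Gyc76C larvae and 39.2 and 2.45 in GFP larvae. All 3 were chosen after their values had been seen.

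Pde9 had 3 tested probe sets, and all had lower signals in Gyc76C larvae, with log2 differences of -0.997 and -0.71 for the brighter probe sets. None passed by limma (adjusted p = 0.0611 and 0.147 for these and 0.141 for the dimmest). Their groups did not overlap, which was also true of 41.4% of tested probe sets in this direction. The dimmest had 10.9 and 48.1 in Gyc76C larvae and 72.1 and 95.1 in GFP larvae, at least 1.75-fold lower with the signal under 46.3 raised to that level.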
